A study of Mus musculus with 9 samples.

Results

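Normal colonic mucosa of mice that drank butyrate and carried tumors was compared with that of mice without butyrate. The comparison takes 6 of the 9 arrays of the study, 3 titled as butyrate with tumors and 3 titled as DMH, chosen by title. The mice were of the ICR strain, an outbred stock, and every group, the DMH group included, received 1,2-dimethylhydrazine (DMH) under the skin at 20 mg/kg, weekly for 20 weeks. DMH is a procarcinogen that is activated in the body and induces tumors of the colon in rodents. The DMH group had plain drinking water and normal diet. The butyrate groups had 1.5% butyrate in the water, and the 3 further arrays of the study came from butyrate mice without tumors, which enter here as a second reference. The tissue was mucosa described as normal, not tumor, and no group without DMH was among the samples. The tumor status is that of titles, descriptions and source names. A field of the labels named tumor status contradicts them in each of the 6 butyrate samples. Should that field be the correct one, the values below are those of mice without tumors. Nothing in the labels says whether the samples of a group came from separate animals. The p-values then measure nothing but the spread between these samples, which may be technical.

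Butyrate is a short-chain fatty acid that gut bacteria make from fiber. Colonocytes take it up through transporters such as Slc5a8 and Slc16a1 and burn it in their mitochondria, and inside the cell it inhibits histone deacetylases. The colonic mucosa consists of an epithelium of absorptive, mucus-secreting goblet and hormone-secreting enteroendocrine cells renewed from the crypt base, over a lamina propria with immune cells.

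Total RNA was labelled with 1 dye and hybridised to Agilent mouse arrays. Signals at the 75th percentile were 188, 832 and 880 on arrays 1 to 3 with tumors and 740, 808 and 822 on DMH arrays 1 to 3, and the share of spots above the scanner's background test was 57.8% to 72.5%. Array 1 with tumors lay on the slide of the 3 arrays without tumors, arrays 2 and 3 with tumors on a second slide, and the DMH arrays on 2 others, scanned on another day. Slide, scan day and treatment therefore cannot be told apart. Array 1 with tumors stood apart from its group. The SD of the log2 difference over features was 1.01 and 0.965 between it and arrays 2 and 3, 0.505 between arrays 2 and 3, and 0.360 to 0.555 between DMH arrays. The defining markers of the mucosa were bright. The 7 goblet cell markers summed to 1443 to 1579 times the 75th percentile on the DMH arrays and to 215, 858 and 360 on the arrays with tumors, and the 6 markers of absorptive colonocytes to 557 to 641 and to 345 to 478.

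Levels below are log2 signals minus the 75th percentile of the same array, differences are log2 levels with tumors minus DMH, and ± is the standard error from 1 limma fit of the 3 groups over all 9 arrays, with Benjamini-Hochberg adjusted p-values over the whole table. A gene rose or fell where the adjusted p was under 0.05. Of 21968 features 1253 were called (5.70%), 756 higher (3.44%) and 497 lower (2.26%), among them 357 named genes that rose and 395 that fell. The median difference of all features was 0.08. Before adjustment 6575 of the 21968 features had a p under 0.05 in limma, counting both directions. The list counts given below at an unadjusted p under 0.05 are to be read beside this. The balance was 440 rises and 489 falls after quantile scaling, 447 and 704 after normexp background correction and quantile scaling together, and 414 and 1543 in the authors' values, which cover fewer features. The calls lay close to the threshold, with 8 under an adjusted p of 0.01. They rested on single arrays. Without array 3 with tumors 53 features were called, without DMH array 1 487, and without DMH array 2 or DMH array 3 only 4. The arrays without tumors set part of the spread, and 317 features were called without array 2 and 443 without array 3 of that group. With DMH arrays 2 and 3, which were the most alike, averaged into 1 sample, 4 features were called. Of 93 genes named below that were called, 2 kept their call in each fit with 1 of the 9 arrays removed, Ang4 and Mitf. The differences themselves moved less. Leaving out 1 array multiplied the differences of the 93 genes by 0.719 to 1.31. All 3 arrays with tumors lay above all 3 DMH arrays in 23.0% of features and below them in 19.5%.

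**Figure D1:**
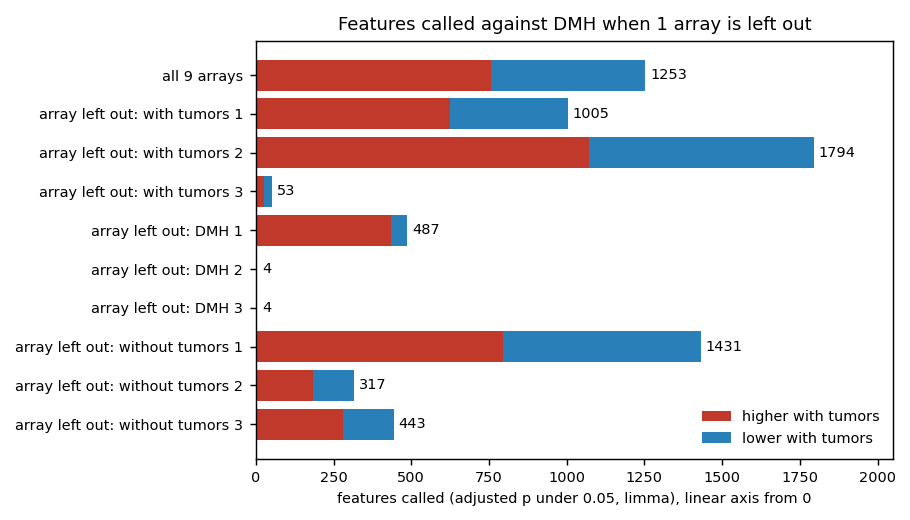
Features called for butyrate with tumors against DMH in limma (horizontal axis, number of features from 0) with all 9 arrays and with each array left out in turn, split by direction. The bar falls from 1253 to 4 without DMH array 2 or 3 and to 53 without array 3 with tumors, and rises to 1794 without array 2 with tumors.

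**Figure D2:**
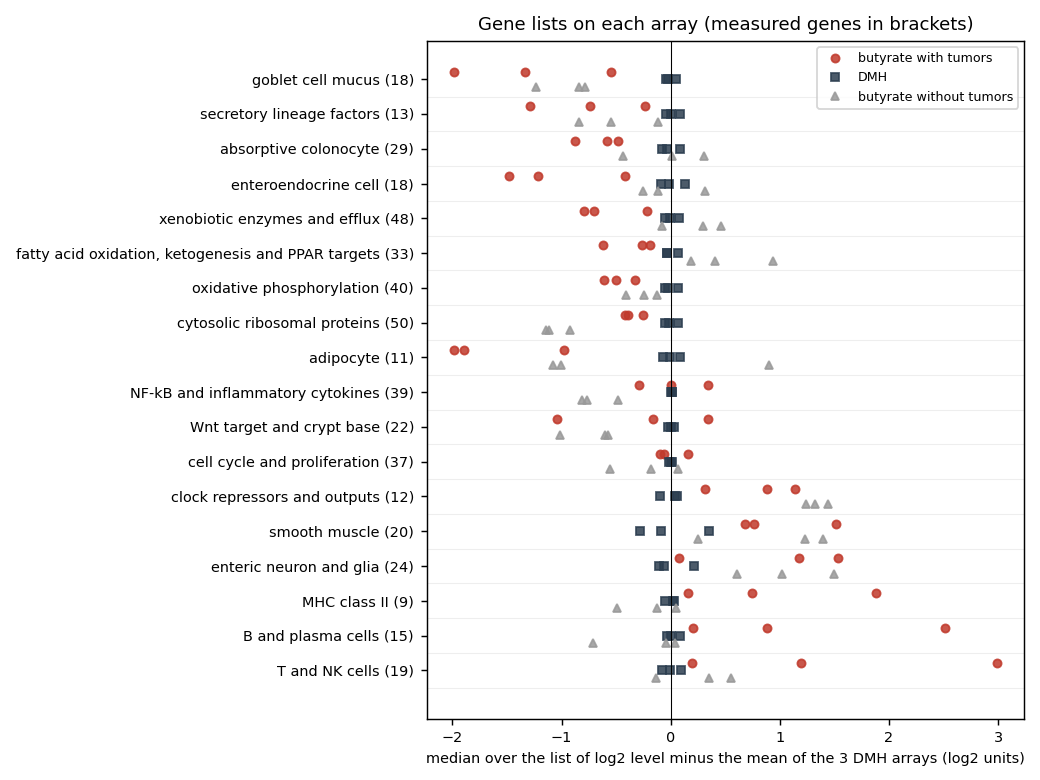
Medians of 18 gene lists on each array, as the log2 level minus the mean of the 3 DMH arrays (horizontal axis, log2 units), with the number of measured genes in brackets; each point is 1 array. Goblet cell, xenobiotic and adipocyte lists lie below 0 on all 3 arrays with tumors, and lists of smooth muscle and T and NK cells lie above 0, the latter from 0.19 to 2.99. On all 3 arrays without tumors the goblet cell list also lies below 0 and the smooth muscle list above 0.

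Goblet cells make the mucus layer, and part of their genes fell against DMH in mucosa with tumors. Without tumors the list also lay below DMH, with a median of -1.03. There Clca1, Fcgbp and Tff3 were called lower (-1.32, -1.82 and -2.37), and Muc2 was not (-1.22, adjusted p = 0.0694 in limma). Between the butyrate groups 2 members of the list were lower with tumors, as were 6.55% of all features. Of 18 measured goblet cell genes 5 fell and 1 rose, and the median difference was -1.35, against 0.08 for all features. Muc2, the main gel-forming mucin of colonic mucus, had levels of 4.25, 6.31 and 5.03 on arrays 1 to 3 with tumors and 7.78, 7.54 and 7.62 on the DMH arrays, and fell by 2.45 ± 0.45 on the log2 scale (adjusted p = 0.0323). All arrays with tumors lay below all DMH arrays, and array 1 was lowest. A pair of dimmer Muc2 probes had -1.12 (adjusted p = 0.12) and -0.86 (adjusted p = 0.0683). Clca1, a protease of the mucus, changed from 8.02, 7.99 and 7.99 to 5.32, 7.13 and 5.97, a difference of -1.86 ± 0.40 (adjusted p = 0.0413). Fcgbp, which cross-links with Muc2, had -2.31 ± 0.52 (adjusted p = 0.0438; -2.10 and adjusted p = 0.0519 in a second probe). Gcnt3, which builds mucin sugar chains, and Agr2, needed for mucin folding, fell with -1.54 ± 0.36 and -1.73 ± 0.41. The trefoil peptide gene Tff3 had levels of 4.83, 7.02 and 6.11 against 7.90, 7.80 and 7.83 and a difference of -1.86 ± 0.49 that did not pass (adjusted p = 0.0582). Its relative Tff1, known from the stomach, rose by 1.35 ± 0.29 (adjusted p = 0.0416), from -2.17, -2.69 and -2.34 on the DMH arrays to -1.25, -1.18 and -0.72. The goblet list kept a negative median in all 25 alternatives (-1.96 to -1.04), but with quantile scaling 1 member fell and 1 rose. Without array 1 with tumors 1 member fell, without array 2 with tumors 11 did, and 0 did without array 3 with tumors, without any 1 of the DMH arrays, or without array 2 or 3 without tumors. On the same arrays the 5 defining smooth muscle markers summed to 302 to 580 times the 75th percentile with tumors and 157 to 258 in DMH, and the 5 T and NK cell markers to 1.76 to 12.4 and 1.63 to 1.83. Their part in the falls of epithelial and metabolic genes was not tested.

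Of 13 transcription factors that direct secretory cells 3 fell, and the median was -0.67. Spdef, which drives goblet cell maturation, had levels of 0.54, 1.35 and 0.42 with tumors and 3.35, 3.01 and 3.12 in DMH, a difference of -2.39 ± 0.40 (adjusted p = 0.029). Atoh1, which commits cells to the secretory lineage, had -1.73 ± 0.36 and Klf4 -0.79 ± 0.14 (adjusted p = 0.04 and 0.0326). Without tumors the median of this list against DMH was -0.51. Spdef, Atoh1 and Klf4 had -1.34, -0.82 and -0.61 there (adjusted p = 0.0364, 0.118 and 0.0166 in limma). Ang4, an antimicrobial ribonuclease of secretory cells, was the only epithelial gene named here that stayed called without each of the 9 arrays. Its levels were 1.68, 0.88 and 1.18 with tumors against 4.25, 4.15 and 4.30 in DMH, with no overlap and a difference of -2.98 ± 0.22 (adjusted p = 0.00265). It was also low without tumors (1.08, 0.85 and 0.73). Of 14 antimicrobial and Paneth-type genes it was the only one called, and the list's median of -0.42 turned to 0.03 without array 1 with tumors.

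Enteroendocrine genes had a median of -0.89, with 4 of 18 falling and none rising in limma (2 higher at an unadjusted p under 0.05). Chga, a granule protein that marks these cells, had levels of 1.72, 2.88 and 1.86 against 4.13, 3.89 and 4.04 (-1.87 ± 0.35, adjusted p = 0.0332). Sct, which encodes secretin, went from 3.36, 3.14 and 3.14 in DMH to 1.47, 1.64 and 1.24 (-1.76 ± 0.33). Tph1, which makes serotonin in enterochromaffin cells, had -1.51 ± 0.26 (-2.14 in a second probe, adjusted p = 0.0333), and the prohormone convertase gene Pcsk1 -1.66 ± 0.34. A second Pcsk1 probe had -1.57 and was not called (adjusted p = 0.0606 in limma). Chga, Sct and Tph1 were also lower than in butyrate mucosa without tumors, by 1.70, 1.28 and 1.55. In that comparison, which uses the same arrays with tumors, 6.55% of features were called lower and 6.98% higher. Only array 1 with tumors shared a slide with the arrays without tumors. Within that slide the differences of the 3 genes were -2.13, -1.26 and -1.83, and with slide as a fixed block, chosen after seeing the data, 357 features were called in place of 2973; that block takes the difference from 1 array with tumors. Absorptive colonocyte genes had a median of -0.53, and 6 of 29 fell. Cdx2, the homeobox factor of intestinal identity, had levels of 2.42, 2.69 and 2.50 against 4.04, 3.98 and 4.11 (-1.51 ± 0.26, adjusted p = 0.0291), and its relative Cdx1 had -1.54 ± 0.35. Fabp2 (-1.49 ± 0.29), which binds fatty acids, the keratin gene Krt19 (-0.83 ± 0.16) and the water channel gene Aqp4 (-1.50 ± 0.31) fell. A pair of other Aqp4 probes was not called (adjusted p = 0.0957 and 0.0993). Car1, a carbonic anhydrase of colonocytes, had levels of 5.76, 5.01 and 5.35 with tumors, 7.44, 7.16 and 7.23 in DMH and 8.21, 6.48 and 7.44 without tumors, so that all arrays with tumors lay below the other 6. It fell by 1.90 ± 0.40 against DMH and by 2.00 against no tumors (adjusted p = 0.0401 and 0.0225; -1.61 within the shared slide). Krt20, a keratin of the surface epithelium, had -0.45 ± 0.17 and did not pass (adjusted p = 0.116). Cldn15, a pore-forming claudin, fell by 1.90 ± 0.26 (adjusted p = 0.0227) and was the only call among 20 tight junction genes (median -0.59).

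**Figure D3:**
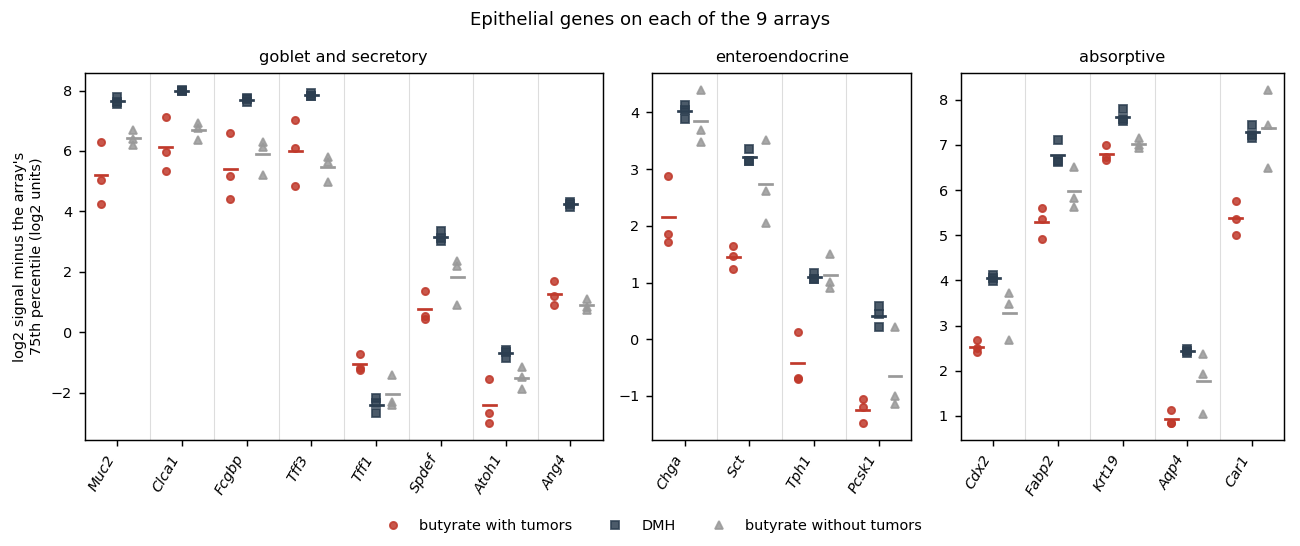
Levels of 17 epithelial genes (vertical axis, log2 signal minus the 75th percentile of the array) on the 9 arrays; points are arrays and bars are means of 3. For each gene but Tff1 the 3 arrays with tumors lie below the 3 DMH arrays. DMH arrays scatter least for each gene but Krt19, where the arrays without tumors do.

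Genes of xenobiotic metabolism, which conjugate, cleave or oxidise foreign compounds in the epithelium, had 8 falls and 1 rise among 48 measured (median -0.62). Sult1a1, a sulfotransferase of phenols, had levels of 2.94, 3.24 and 2.53 with tumors and 5.04, 4.75 and 4.81 in DMH, a difference of -1.97 ± 0.28 (adjusted p = 0.0246). The carboxylesterase genes Ces1f and Ces1g had -2.67 ± 0.39 and -3.13 ± 0.70, and the cytochrome genes Cyp2c55 and Cyp4f14 -2.18 ± 0.44 and -0.80 ± 0.17. A second Ces1g probe had -2.91 and was not called (adjusted p = 0.0529 in limma). Ugt2b5, a glucuronosyltransferase, had levels of -3.98, -3.05 and -3.44 against -0.01, 0.31 and 0.49, the largest fall of the 8 at -3.75 ± 0.57 (adjusted p = 0.0256). Ugt2b36 and Ugt1a1, of the same superfamily, had -2.66 ± 0.58 and -2.57 ± 0.60, each well above background on 2 arrays with tumors. Ugt2b38, which was not on the list, had -3.69 ± 0.62 (adjusted p = 0.029) and was well above background on 1 of 3 arrays with tumors. Cross-hybridisation between the Ugt2b copies was not tested. Adh4, an alcohol dehydrogenase that oxidises retinol, rose, with levels of -3.64, -3.23 and -2.59 with tumors and -4.81, -6.97 and -7.52 in DMH (3.28 ± 0.72, adjusted p = 0.0426). It was well above background on 1 DMH array, and was also higher than DMH without tumors, by 2.73 (adjusted p = 0.0245 in limma). Against butyrate mucosa without tumors 18 of the 48 were lower and 1 higher, beside 6.55% and 6.98% of all features. Without array 3 with tumors 0 of 48 were called, and without array 1 with tumors 4 fell. Cyp2e1, which activates DMH metabolites, was well above background on all DMH arrays (-2.93, -2.72 and -2.52) and on no array with tumors (-5.48, -8.30 and -7.54); it was at least 5.48-fold lower, with an adjusted p of 0.0538 that did not pass. "At least" marks a bound: the dimmer group passed the scanner's background test on 0 arrays, and its mean was replaced by the lowest signals that passed that test. Hdac1, Ffar3 and Mgmt were not among the features tested.

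The start regions of the 3 Ugt2b genes are shown because these genes, which lie close together on chromosome 5, all fell. The RefSeq sequences hold the 250 bases before the gene start in build GRCm38.p6, read 5′ to 3′ along the minus strand, with AGGTCA, the half-site letters of nuclear receptors, in capitals.
Ugt2b5 (chr5:87140341-87140590, minus strand): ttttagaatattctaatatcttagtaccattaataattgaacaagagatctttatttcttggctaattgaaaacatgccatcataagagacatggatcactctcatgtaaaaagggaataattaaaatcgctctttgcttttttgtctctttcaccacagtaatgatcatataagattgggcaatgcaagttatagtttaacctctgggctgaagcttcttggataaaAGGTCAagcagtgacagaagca
Ugt2b36 (chr5:87092556-87092805, minus strand): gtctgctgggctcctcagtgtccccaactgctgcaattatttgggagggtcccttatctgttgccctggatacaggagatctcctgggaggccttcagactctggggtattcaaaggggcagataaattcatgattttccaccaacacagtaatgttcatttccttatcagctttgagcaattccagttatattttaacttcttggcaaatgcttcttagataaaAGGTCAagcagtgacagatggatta
Ugt2b38 (chr5:87424204-87424453, minus strand): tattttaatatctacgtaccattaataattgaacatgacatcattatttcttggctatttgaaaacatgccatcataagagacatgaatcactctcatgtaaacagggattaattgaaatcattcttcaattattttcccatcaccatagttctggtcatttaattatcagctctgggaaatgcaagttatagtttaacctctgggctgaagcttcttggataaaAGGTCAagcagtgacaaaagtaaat
Each held AGGTCA once, beginning 22, 25 and 25 bases before the start, in a shared stretch. Over both strands, 14.0% of 32851 such windows in the table held it. In pairwise alignment the windows of Ugt2b5 and Ugt2b38 were identical at 88.3% of aligned bases, and Ugt2b36 had 69.6% and 68.5% with them. A match in letters is a description and not a binding site.

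Of 10 measured genes of butyrate receptors and transport 2 fell and 1 rose (median -0.49). Ffar2, a G protein-coupled receptor for short-chain fatty acids, had levels of -0.37, -0.32 and -1.42 with tumors, 1.47, 1.02 and 0.95 in DMH and 0.73, 0.26 and 0.54 without tumors. It fell against DMH (-1.85 ± 0.31, adjusted p = 0.0291) and lay 1.21 lower than without tumors (adjusted p = 0.0413). Bsg, the chaperone that brings monocarboxylate transporters to the membrane, had -1.15 ± 0.25 against DMH (adjusted p = 0.0416), with array 1 lowest at 2.96. Slc5a8, the sodium-coupled butyrate transporter, had levels of 0.78, 2.23 and 0.99 against 2.39, 2.26 and 2.29; array 2 lay near the DMH arrays and the difference of -0.98 ± 0.35 did not pass (adjusted p = 0.111). The transporter genes Slc16a1 (4.51, 4.70 and 4.30 against 4.64, 4.70 and 4.58) and Slc16a3 overlapped between the groups, with -0.14 ± 0.15 and -0.20 ± 0.23. The difference of Slc16a1 was 0.04 after quantile scaling and that of Slc16a3 3.8e-05 with array weights. Hcar2, another butyrate receptor, had -1.30 ± 0.46 (adjusted p = 0.108). Slc16a4, a monocarboxylate transporter relative, rose by at least 1.07-fold (adjusted p = 0.0457), well above background on 2 arrays with tumors and no DMH array. Among 17 histone deacetylase and sirtuin genes Sirt1 alone was called, higher by 0.69 ± 0.15 (adjusted p = 0.0437), but a second probe had -1.37 (adjusted p = 0.0617) and the mean of its probes -0.34. Hdac2 and Hdac3 had -0.09 ± 0.25 and -0.51 ± 0.23, neither called, and Hdac2 had 0.09 without array 1 with tumors. Cdkn1a, the p21 gene that histone deacetylase inhibitors are known to induce, was not higher in these arrays. Its levels were 3.44, 3.34 and 3.75 with tumors, 4.15, 3.98 and 3.93 in DMH and 4.42, 4.25 and 4.03 without tumors, with -0.51 ± 0.18 against DMH (adjusted p = 0.104) and -0.73 against no tumors (adjusted p = 0.0361).

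Genes that burn fatty acids were lower with tumors than without. Of 33 members 18 were lower than without tumors (median -0.88), against 6.55% of all features, and 2 fell against DMH (median -0.33). Without tumors the list lay above DMH, with a median of 0.40. Acads, the dehydrogenase of short-chain acyl-CoA and so of butyryl-CoA, had 0.37, 0.79 and 0.78 against 2.27, 2.08 and 2.16 (-1.52 ± 0.19, adjusted p = 0.018). Cpt1a, the gate of mitochondrial fatty acid import, and Hadh, of the same pathway, had -0.44 ± 0.21 and -0.41 ± 0.22 against DMH and were not called (adjusted p = 0.205 and 0.234; a second Cpt1a probe fell by 1.08, adjusted p = 0.0396). Against no tumors they were lower by 1.23 and 1.35 (adjusted p = 0.0163 and 0.0143), and by 1.20 and 1.25 within the shared slide. Without tumors Cpt1a and Hadh were higher than DMH, by 0.80 and 0.94 (adjusted p = 0.0256 and 0.015 in limma). Acads was lower than DMH there, by 0.75 (adjusted p = 0.0196). Levels of Hadh were 3.41, 3.47 and 3.02 with tumors, 3.70, 3.71 and 3.71 in DMH and 5.06, 4.36 and 4.53 without tumors, with no overlap. Oxidative phosphorylation genes lay low as a list, with 7 of 40 falling and 39 of 40 below 0 (median -0.49, against 0.08 for all features). Among those that fell were Cyc1 (-0.81 ± 0.17) of complex III, Ndufs7 (-0.70 ± 0.16) of complex I, Atp5d (-0.72 ± 0.15) and Atp5g1 (-0.70 ± 0.16) of ATP synthase, and Uqcrq and Cox7b. With quantile scaling 0 of the 40 were called in limma and the median was -0.24. Without tumors the list also lay below DMH, with a median of -0.25. Uqcrq and Cox7b had -1.15 and -1.61 there (adjusted p = 0.00518 and 0.00524 in limma). Cyc1, Ndufs7, Atp5d and Atp5g1 had -0.34, -0.37, -0.07 and -0.12 there and were not called. In the citrate cycle and glycolysis list Ogdh fell by 0.85 ± 0.15 (adjusted p = 0.0323; -0.77 in a second probe, adjusted p = 0.0333), the only call of 30.

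**Figure D4:**
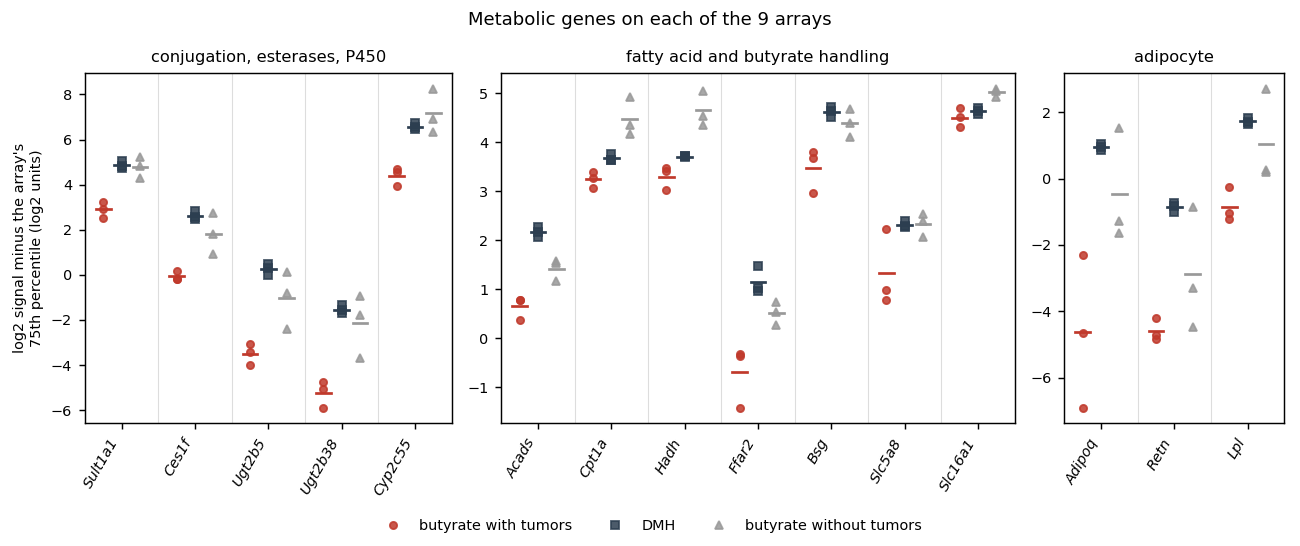
Levels of 15 metabolic and adipocyte genes (vertical axis, log2 signal minus the 75th percentile of the array) on the 9 arrays; points are arrays and bars are means of 3. Ugt2b5 and Ffar2 lie lower on every array with tumors than on every DMH array, while Slc16a1 overlaps and the arrays without tumors scatter widely for Adipoq and Retn.

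Cytosolic ribosomal protein genes lay between the other groups. Of 50 members 7 fell against DMH (median -0.36). Compared with no tumors 27 of 50 were higher (median 0.74), beside 6.98% of all features. Rplp0 differed by 1.41 in that comparison, and by 0.93 within the shared slide. Rplp0 had levels of 6.59, 7.30 and 7.33 with tumors, 8.39, 8.30 and 8.26 in DMH and 5.59, 5.54 and 5.86 without tumors (-1.24 ± 0.22 against DMH, adjusted p = 0.0313), with no overlap of the 3 groups; a second probe had -0.32 (adjusted p = 0.24). Rps12, Rplp1 and Rpl11 had -1.28 ± 0.26, -0.76 ± 0.16 and -0.72 ± 0.14, and Rpl12, Rps24 and Rpl19 also fell. A second Rpl19 probe had -0.36 and was not called (adjusted p = 0.204 in limma). After quantile scaling the median against DMH was -0.03, and after normexp and quantile scaling together it was -0.08, with 0 members called in either (limma). At an unadjusted p under 0.05, without those steps, 22 were lower and 0 higher. Calr, a calcium-binding chaperone, was the only call of 24 endoplasmic reticulum stress genes (-0.87 ± 0.17, adjusted p = 0.0379; -1.08 and adjusted p = 0.0607 in a second probe).

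Fat cell genes were among the largest falls. Adipoq, which encodes the fat hormone adiponectin, had levels of -2.32, -6.90 and -4.64 with tumors, 0.96, 0.86 and 1.05 in DMH and 1.52, -1.29 and -1.63 without tumors (-5.57 ± 1.15 against DMH, adjusted p = 0.0399). Retn, another fat hormone, and Lpl, which frees fatty acids from lipoproteins, had -3.72 ± 0.76 and -2.57 ± 0.62. These 3 of 11 adipocyte genes fell (median -1.65); Fabp4, Plin1 and Lep were looked at after the values were known, and Fabp4 and Plin1 had -1.65 ± 0.55 and -3.03 ± 0.76 (adjusted p = 0.0956 and 0.0532) while a further Fabp4 probe fell by 2.48 (adjusted p = 0.0374) and Lep was not among the features tested. Thrsp and Car3, both abundant in fat, and Mrap, a receptor accessory protein, had -3.65 ± 0.62, -4.42 ± 0.90 and at least 8.84-fold lower signal. The 4 measured defining markers summed to 18.5 to 20.4 times the 75th percentile on the DMH arrays, 4.09 to 9.54 with tumors and 9.18 to 46.3 without. How much fat tissue each sample held was not tested, and in bulk RNA fewer cells of a type and less RNA per cell cannot be told apart.

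The daily clock runs on Arntl with Clock or Npas2, which bind E-boxes and switch on their own repressors and output factors such as Dbp, Tef and Hlf. Of 12 repressor and output genes 4 rose and none fell in limma (0 lower at an unadjusted p under 0.05), with a median of 0.66. Tef had levels of 2.82, 2.25 and 2.11 with tumors and 0.81, 0.95 and 0.49 in DMH (1.64 ± 0.23, adjusted p = 0.0235; 0.90 in a second probe, adjusted p = 0.0492). Dbp had 4.62, 4.05 and 3.91 against 2.84, 2.55 and 2.21 (1.66 ± 0.29, adjusted p = 0.0307), and Hlf 1.90 ± 0.41. Ciart, a repressor of the Arntl complex, had the largest rise of all named genes that met the rule, from -6.99, -3.68 and -4.63 in DMH to -2.34, -1.15 and -1.06 (3.59 ± 0.76, adjusted p = 0.0401); it was well above background on 2 DMH arrays. Of the 7 activators and nuclear receptors, Npas2 and Arntl fell and Nr1d2 rose. The median of the 7 was -0.27, and it was 0.21 with the mean of all probes of a gene and 0.14 both without array 1 with tumors and without the arrays of its slide. Npas2 had -2.77, -2.16 and -2.60 against -0.95, -1.04 and -0.91 (-1.54 ± 0.19, adjusted p = 0.018), and Arntl -0.63, -0.86 and -0.97 against 0.34, 0.18 and 0.29 (-1.09 ± 0.26, adjusted p = 0.0499). Nr1d2, which represses Arntl, had 1.01 ± 0.18 (adjusted p = 0.0295). Per1, Per2 and Per3 had 0.51 ± 0.15, 0.81 ± 0.50 and 0.81 ± 0.36 and were not called (adjusted p = 0.0747, 0.297 and 0.169). The arrays without tumors shared this pattern against DMH, with a median of 1.27 for the repressor and output list. Dbp, Hlf, Npas2 and Arntl had 2.17, 2.48, -1.12 and -1.05 there (each adjusted p under 0.05 in limma). Per1 and Per3 were called there as well, with 1.15 and 2.20. Ciart and Per2 had 1.84 and 1.23 and were not called (adjusted p = 0.0965 and 0.0896). Without tumors Tef lay at 3.44, 3.30 and 3.16 and Nr1d2 at 2.29, 2.42 and 2.02. Both were lower than these with tumors, by 0.90 and 0.78 (adjusted p = 0.0382 and 0.0296). The labels used here give no hour of sampling, so its part was not tested.

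**Figure D5:**
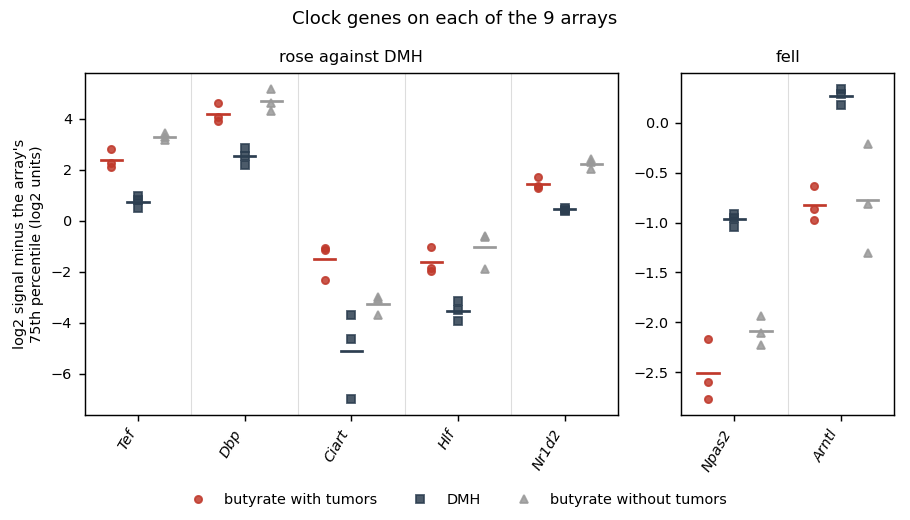
Levels of 7 clock genes (vertical axis, log2 signal minus the 75th percentile of the array) on the 9 arrays; points are arrays and bars are means of 3. The 5 genes that rose lie higher on all arrays with tumors than on all DMH arrays, and Npas2 and Arntl lie lower.

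The windows before Ciart and Tef are shown because they are the called clock genes that hold the E-box CACGTG, the letters bound by Arntl with Clock or Npas2, which reads the same on both strands. They are the 250 bases before the RefSeq start in GRCm38.p6, with the E-box in capitals.
Ciart (chr3:95882229-95882478, minus strand): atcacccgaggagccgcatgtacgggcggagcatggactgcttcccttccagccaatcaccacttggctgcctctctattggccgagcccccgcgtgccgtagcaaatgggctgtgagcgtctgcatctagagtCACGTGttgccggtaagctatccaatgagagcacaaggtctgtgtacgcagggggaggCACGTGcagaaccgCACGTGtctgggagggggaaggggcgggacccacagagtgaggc
Tef (chr15:81802423-81802672, plus strand): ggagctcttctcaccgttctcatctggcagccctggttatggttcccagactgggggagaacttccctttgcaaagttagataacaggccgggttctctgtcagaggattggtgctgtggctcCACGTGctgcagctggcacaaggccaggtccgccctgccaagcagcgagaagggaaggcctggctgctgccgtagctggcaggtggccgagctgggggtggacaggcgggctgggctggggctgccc
Ciart held it 3 times, beginning 116, 58 and 44 bases before the start, and Tef once, at 127 bases. Of 32851 such windows 6.02% held it. Per1 and Cry1, which were not called, and Bhlhe41, which was not among the features tested, held it once each, Per1 at 1 of 2 starts. Dbp, Hlf, Nr1d2, Npas2, Arntl, Clock, Per3, Cry2, Nr1d1 and Nfil3 had no CACGTG in this window, which says only that these letters are not there.

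Muscle and nerve genes lay higher with tumors than in DMH. Smooth muscle and nerve lists did so without tumors as well. There the smooth muscle median against DMH was 0.99, that of enteric neuron and glia genes 1.07, and that of skeletal muscle genes -0.06. All 20 smooth muscle genes had positive differences (median 0.96; 0.35 without scaling), and 1 was called, Pgm5 of muscle adhesion sites, with 3.46, 2.69 and 2.13 against 1.35, 1.17 and 0.86 (1.63 ± 0.38, adjusted p = 0.047; 0.95 and 1.45 in other probes, adjusted p = 0.0761 and 0.065). The contractile genes Acta2 and Myh11 had 0.93 ± 0.35 and 1.12 ± 0.49 (adjusted p = 0.123 and 0.166). The 5 defining markers summed to 580, 345 and 302 times the 75th percentile on arrays 1 to 3 with tumors and to 258, 185 and 157 on the DMH arrays. In the list of 24 enteric neuron and glia genes 2 rose (median 1.00, but 0.08 on array 2): the choline transporter gene Slc5a7 (2.33 ± 0.48, well above background on 1 DMH array) and the neuropeptide gene Tac1 (1.43, 1.32 and 1.16 against 0.19, 0.15 and 0.06; 1.17 ± 0.26, adjusted p = 0.0421). The skeletal myosin genes Myh1 (1.34 ± 0.25) and Myh2 (2.11 ± 0.46) rose, 2 of 7 on that list. A second Myh2 probe had 1.96 and was not called (adjusted p = 0.052 in limma). Defining markers of skeletal muscle summed to 1.62 to 1.75 with tumors and 1.71 to 1.84 in DMH. Pgm5, Slc5a7, Tac1, Myh1 and Myh2 were also higher than DMH without tumors, by 2.42, 3.05, 0.82, 1.39 and 1.68 (each adjusted p under 0.05 in limma). The part of muscle wall in the samples was not tested.

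Lymphocyte genes lay higher mainly on array 1 with tumors. Of 19 T and NK cell genes 0 were called in limma (8 higher and 0 lower at an unadjusted p under 0.05), with a median of 1.53. Of all 21968 features 6575 passed that unadjusted cut in either direction. The T and NK medians of arrays 1 to 3 were 2.99, 0.19 and 1.19. Cd3e, a chain of the T cell receptor complex, had 1.35, -0.84 and 0.04 with tumors and -1.13, -1.41 and -1.49 in DMH (1.53 ± 0.47, adjusted p = 0.0798). B and plasma cell genes had array medians of 2.51, 0.21 and 0.88, with the B cell receptor gene Cd79a at 1.45, -1.33 and -0.10 against -0.96, -1.11 and -1.12, and MHC class II genes had 1.88, 0.16 and 0.75. On every array with tumors 8 of the 15 B and plasma cell genes lay above all DMH arrays and 3 below. Of all features 23.0% lay above and 19.5% below in this way. The 5 defining B and plasma cell markers summed to 75.2, 46.6 and 37.4 times the 75th percentile with tumors and to 64.7 to 70.2 in DMH. The 1 call among 15 B and plasma cell genes was lower, Sdc1 (-1.07 ± 0.25, adjusted p = 0.0467), a proteoglycan that epithelial cells also carry. Without array 1 the T and NK median was 0.70 and the B and plasma median 0.46. Whether these samples held lymphoid tissue was not tested.

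Of 39 NF-kB and cytokine genes 0 were called against DMH in limma (6 higher and 1 lower at an unadjusted p under 0.05). Their median of 0.04 turned to -0.02 with normexp and quantile scaling together and -0.07 in the authors' values. Compared with no tumors 9 of the 39 were higher, beside 6.98% of all features. S100a8, a calgranulin of neutrophils, had -3.37, -1.30 and -0.01 with tumors, -1.65, -1.37 and -1.42 in DMH and -5.88, -6.16 and -7.27 without tumors. Its difference was -0.08 ± 0.75 against DMH (adjusted p = 0.954; 0.82 without array 1 with tumors and 0.11 with normexp and quantile scaling together). It was at least 14.3-fold higher than without tumors (adjusted p = 0.0134), where it was well above background on no array. Cxcl5, a neutrophil chemokine, had -3.44, -0.74 and 0.32, 0.87, 0.88 and 1.04 and -6.12, -5.37 and -7.53 in the same order, and was well above background on 1 array without tumors. Mmp9, a gelatinase, fell against DMH (-2.06 ± 0.44, adjusted p = 0.0401; -2.16 in a second probe, adjusted p = 0.0398) and was higher than without tumors by 1.64 (adjusted p = 0.045); it was the only call among 10 neutrophil and 15 metalloproteinase genes. In each of these 3 genes array 1 with tumors was the lowest of its group.

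Growth and crypt genes showed few calls. Of 37 cell cycle genes Bub1, a kinase of the mitotic checkpoint, rose (1.59 ± 0.30, adjusted p = 0.0342), but a second probe had -0.04 (adjusted p = 0.934), and the list's median was -0.58 to 0.05 over the alternatives. Mki67 and Myc had 3.17, 3.21 and 3.02 against 3.54, 3.45 and 3.54 and 2.49, 2.52 and 2.68 against 2.76, 2.78 and 2.79; neither was called (adjusted p = 0.281 and 0.524). Of 22 Wnt target and crypt base genes 0 were called in limma (1 higher and 2 lower at an unadjusted p under 0.05), and array medians were -1.05, -0.16 and 0.34. Lgr5, the receptor of crypt stem cells, ran from -2.31 on array 1 to 0.12 on array 3, across the DMH arrays (-0.24, -0.17 and -0.13). Cdkn2a, a cell cycle inhibitor gene, was called lower (adjusted p = 0.0399), with -6.49, -7.76 and -7.02 on arrays with tumors, none of them well above background, and -5.47, -5.74 and -5.44 in DMH; no fold is given. Pmaip1, a p53 target that promotes apoptosis, rose by 0.61 ± 0.14 (adjusted p = 0.047) but had -0.0023 without scaling, where the median of all features was -0.53. The immediate early gene Fosb rose (1.27 ± 0.25) and Nr4a2 fell (-1.08 ± 0.23), 1 each of 21. The hypoxia list had 1 call of 20, Kdm3a (0.87 ± 0.17), whose second probe had -0.98 (adjusted p = 0.515) and whose probe mean was -0.05. Dsg3, a desmosomal cadherin, fell by 1.84 (adjusted p = 0.0496), the 1 call of 12 squamous genes. Slc4a1, a red cell anion exchanger, rose by 1.32 (adjusted p = 0.0324), the 1 call of 3 erythrocyte genes. The other 2 genes of that list went the opposite way, with all arrays with tumors below all DMH arrays. The median of the list was -1.16. The 2 measured defining markers of erythrocytes summed to 0.924 to 1.43 with tumors and 3.93 to 4.57 in DMH.

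The largest differences outside the lists included genes at the edge of detection. Mitf, a transcription factor of melanocytes and mast cells, was well above background on all DMH arrays (-2.15, -1.62 and -1.76) and on none with tumors (-6.54, -7.55 and -7.48), at least 10.1-fold lower (adjusted p = 0.00138). It was at -7.31, -7.89 and -7.68 without tumors. Cacna1f, a calcium channel subunit, was at least 5.42-fold lower in the same pattern. Srrm3, a splicing regulator, had -3.45, -2.06 and -1.83 with tumors, 1.89, 2.25 and 1.92 in DMH and -4.34, -5.46 and -4.76 without tumors (-4.47 ± 0.44 against DMH, adjusted p = 0.0122), and Ang2, an angiogenin copy, -3.41 ± 0.79. Gucy1b2, a guanylate cyclase subunit, rose from -2.49, -1.83 and -1.98 in DMH to levels between 0.83 and 1.34 (3.19 ± 0.48, adjusted p = 0.0256) and was also higher than without tumors, by 1.82. Pira2, an immunoglobulin-like receptor of myeloid cells, rose by 2.52 ± 0.38, with 1 DMH array well above background, and Zfp979, a zinc finger gene, by 3.24 ± 0.69. Zfp979 was also higher than DMH without tumors, by 2.55 (adjusted p = 0.026 in limma). Ccdc182, the cadherin gene Fat2, Ndst4 and Klhl4 were well above background on all arrays with tumors and no DMH array, at least 3.62-fold, 3.25-fold, 2.87-fold and 2.35-fold higher. 4930447C04Rik and Brinp3 were at least 1.78-fold and 1.70-fold higher in that way, and the olfactory receptor gene Olfr1184 had 2.52 ± 0.54 with 1 DMH array well above background. Ccdc182, Fat2, Ndst4 and Klhl4 were also well above background on all 3 arrays without tumors, Brinp3 on 2 and 4930447C04Rik on 1. None of these 6 was called between the butyrate groups (adjusted p = 0.162 to 0.784 in limma). Of the 756 rises, 106 had no DMH array well above background and 108 had 1 or 2.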

How the data were processed

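A scanner file, 1 per sample, covered 41174 probes in 43379 spots, beside 1639 control spots that were dropped. Per the file headers, the deposited gProcessedSignal is an intensity after background subtraction and detrending by Agilent Feature Extraction 10.5.1.1, and gMedianSignal and gBGMedianSignal are unprocessed intensity. The authors' deposited log2 table held 21829 probes. Against the scanner files it was log2 gProcessedSignal minus 1 constant per array (SD of the difference at most 0.0081, column medians 2.71 to 3.20), and the nature of the constant is unknown. There were 0 saturated spots.

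Here, outlier spots were set to missing, spots of a probe averaged, and log2 gProcessedSignal taken minus the 75th percentile of the array. Probes well above background on at least 3 of 9 arrays were kept (28529, of which 28521 had 2 or more values in each group). Through RefSeq accessions 26925 probes had 1 symbol and 14249 had none. Accessions differ for 4725 probes in the DMH files, and those of the butyrate files were used throughout. The brightest probe over all arrays stood for a gene, which left 21968 features, 15342 named. limma 3.58.1 in R 4.3.3 (lmFit, eBayes, 2-sided) fitted the 3 groups, with Benjamini-Hochberg adjustment over all features.

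The members and the 47 gene lists were chosen with earlier results of these data known, and list counts are descriptions. Named were the 12 largest rises and 12 largest falls (called, not overlapping, brighter group well above background on 3 arrays), up to 4 called members of a list by smallest p, up to 2 of a list also called against no tumors, and a fixed set (butyrate and DMH handling, growth, mucus). Chosen after their values were seen were S100a8, Cxcl5, Cpt1a, Hadh, Cd3e, Cd79a, Ugt2b38, Acta2, Myh11, Plin1, Fabp4, Lep, Per1, Per2, Per3, Gcnt3, Agr2, Cdx1, Ces1g, Cyp4f14, Ugt2b36, Ugt1a1, Uqcrq, Cox7b, Rpl12, Rps24 and Rpl19. Some members of the lists are counted but not reported here by name. Shared replicate numbers were checked: deviations of same-numbered tumor and DMH arrays correlated with r = 0.0748, 0.102 and -0.00953. With the arrays without tumors r was 0.163, 0.054 and -0.00249. The numbers were not taken to pair samples, though 3 arrays per group are too few for this check to exclude pairing.

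Alternatives were other scalings, normexp with offset 50 and quantile scaling, the table of the authors, filters, probe rules, priors, thresholds, array weights, blocks by number or slide, and leaving out arrays. Python 3.11.15, pandas 2.3.3, numpy 2.4.6, matplotlib 3.10.9 and Biopython 1.88 read, aligned and drew. The number of arrays limits the precision.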

Additional observations from a re-analysis of the deposited data

Results flagged for a closer look

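For 43 of the named genes the level differed between butyrate mucosa with and without tumors (limma, log2 with minus without tumors, 3 against 3 arrays, adjusted p under 0.05). Both groups drank butyrate. Of all features 13.5% were called in this test. Some genes were named because they passed it, and others after their values were seen, so the 43 cannot be weighed against that share. The DMH arrays cancel out of this difference. Slide 1 holds array 1 with tumors and all arrays without tumors, so a difference within a slide rests on that 1 array with tumors. With slide as a fixed block, chosen after seeing the data, Per3 (-2.30), Pira2 (2.62) and Rpl11 (1.51) were called, each with an adjusted p of 0.0477. No explanation was tested.

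Lower with tumors were 28 genes. In the epithelium and its hormone cells they were Car1 (-2.00), Cldn15 (-1.40), Chga (-1.70), Sct (-1.28) and Tph1 (-1.55). In metabolism they were the xenobiotic genes Ces1f (-1.88), Ces1g (-2.75), Cyp2c55 (-2.77), Cyp4f14 (-0.81), Sult1a1 (-1.88), Ugt2b36 (-3.12), Ugt2b38 (-3.10) and Ugt2b5 (-2.46), the fatty acid genes Acads (-0.77), Cpt1a (-1.23) and Hadh (-1.35), and the energy genes Atp5d (-0.65), Atp5g1 (-0.57) and Ogdh (-0.65). The butyrate receptor Ffar2 (-1.21), the transporter chaperone Bsg (-0.92), the clock genes Nr1d2 (-0.78), Per1 (-0.64), Per3 (-1.39) and Tef (-0.90), the growth and death genes Cdkn1a (-0.73) and Pmaip1 (-0.51), and Adipoq (-4.15) completed them. The value of Adipoq was -1.85 within slide 1 and -5.30 for arrays 2 and 3 with tumors.

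Higher with tumors were 15 genes. Ribosomal protein genes were Rpl11 (1.65), Rpl12 (0.80), Rpl19 (1.04), Rplp0 (1.41), Rplp1 (1.08), Rps12 (1.25) and Rps24 (1.13). Genes of neutrophils, myeloid cells and inflammation were Cxcl5 (5.05, well above background on 1 array without tumors), S100a8 (at least 14.3-fold), Mmp9 (1.64) and Pira2 (1.76). The others were Ang2 (2.98), Dsg3 (at least 1.27-fold), Gucy1b2 (1.82) and Srrm3 (2.40). S100a8 and Dsg3 were well above background on no array without tumors. Cxcl5 was 2.90 within slide 1 and 6.13 for arrays 2 and 3 with tumors.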

How the results depend on the processing

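The counts of calls moved far more than the differences. Features called against DMH (total, higher, lower) were 1253, 756 and 497 as reported, 35, 1 and 34 with no scaling, 1957, 414 and 1543 in the authors' values, 190, 139 and 51 with no filter on dim probes, 356, 159 and 197 with only the 6 arrays compared, and 5247, 3038 and 2209 with array weights. They were 2507, 1250 and 1257 without the arrays of slide 1, and 4, 1 and 3 both with slide as a random block and with the 2 most alike DMH arrays averaged. Rises were 440 after quantile scaling and 447 after normexp and quantile scaling together. An adjusted p under 0.01 left 8, 2 and 6, and a log2 over 1 left 295 falls. Leaving out 1 array gave 4 to 1794 features, 1 to 1071 higher and 3 to 723 lower. Features called between the butyrate groups (2973) were 1 with no scaling, 1442 with no filter, 7454 with array weights, 1145 with DMH arrays averaged, 357 with slide as a fixed block, and 177 to 7774 without 1 array. With the replicate number as a block 477 features were called against DMH, 351 higher and 126 lower, and 2809 between the butyrate groups. The numbers were not taken to pair the samples. Alternatives not listed kept these counts within 1.5 times.

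Of the 93 called genes named, 3 changed sign in some alternative: Pmaip1 (-0.0023 with no scaling), Kdm3a (-0.054) and Sirt1 (-0.34 with the mean of all probes of a gene, as for Kdm3a). Genes not called that changed sign were Slc16a1 (0.038 after quantile scaling), Per1 (-0.098 with no scaling, 0.43 to 0.57 without 1 array), S100a8 (0.11 after normexp and quantile scaling together, 0.75 with array weights, 0.82 without slide 1, -0.85 to 0.82 without 1 array), Hdac2 (0.00051 with array weights, 0.089 without slide 1, -0.21 to 0.089 without 1 array) and Slc16a3 (3.8e-05 with array weights). The cause was not tested.

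Array 1 with tumors had the lowest signal of the 9, which limits dim genes most.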
